A study of Mus musculus with 12 samples.

Results

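Sox9, Spp1, Krt7, Krt8, Krt18, Krt19 and Epcam are genes of biliary and simple epithelial cells, chosen by symbol from the 52636 genes of a liver RNA sequencing table. All 7 had a row, and 4 of them, Sox9, Spp1, Krt8 and Krt18, were among the 16563 genes with enough reads to be tested. The libraries came from hepatocytes of steatotic livers of 6 mice, 3 wild-type (WT) mice and 3 mice with a knockout (KO) of Ptprk, which encodes protein tyrosine phosphatase receptor kappa. Centrifugation on Percoll parted the hepatocytes of each mouse by their lipid content, and each mouse gave 1 low-fat and 1 high-fat library. Each of the 2 fractions of each genotype thus had 3 libraries, which makes 4 groups. The labels call all livers steatotic. The strain, age, sex, diet and knockout allele are not given in the sources used here.

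Values are gene read numbers scaled by the authors to 20 M (mega) per library, written below as reads per 20 M. The estimated depth ran from 15.1 to 25 M reads, so that 3 reads, used here as the detection floor, corresponded to 2.4 to 3.98 reads per 20 M. Ptprk lay between 2174 and 2883 reads per 20 M in the 6 WT libraries and between 1117 and 1364 in the 6 KO libraries, with log2 differences of -1.13 in low-fat and -0.99 in high-fat libraries (adjusted p = 0.0013 and 0.005, limma). Summed markers of stellate cells lay between 127 and 641 reads per 20 M in low-fat and between 1919 and 3406 in high-fat libraries. The sums also differed for sinusoidal endothelial cells, at 821 to 2008 against 3249 to 10022, and for Kupffer cells, at 437 to 1247 against 1945 to 10433. The high-fat libraries of WT mouse 1 and KO mouse 1 had Kupffer sums of 10433 and 9109, whereas those of the other 4 mice did not exceed 2172. The summed hepatocyte markers lay between 494855 and 553521 in low-fat and between 482655 and 545667 in high-fat libraries.

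In the liver, the cells lining the bile ducts (cholangiocytes) carry keratins 7 and 19 and the adhesion molecule EpCAM together with keratins 8 and 18, whereas hepatocytes carry keratins 8 and 18 alone. Keratins form filaments only as pairs of a type I and a type II protein, so that keratin 8 (type II) and keratin 18 (type I) depend on each other. Sox9, a transcription factor, and Spp1, which encodes the secreted phosphoprotein osteopontin, mark bile duct cells. Sox9 is also known from some hepatocytes near the portal tract, and both genes are known to appear in injured hepatocytes.

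The 7 genes fell into 3 levels. Per length of exon, Krt18 and Krt8 had 2363 and 2197 reads per kb per 20 M, Spp1 and Sox9 had 99.6 and 51.2, and Epcam, Krt19 and Krt7 had 1.67, 1.53 and 0.236. Krt7 did not exceed 5 reads per 20 M, Epcam did not exceed 6 and Krt19 did not exceed 7 in any library. The markers that set cholangiocytes apart from hepatocytes were thus at or near the floor in both fractions and both genotypes, and the data go against calling the 7 genes a biliary signal here.

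**Figure D1:**
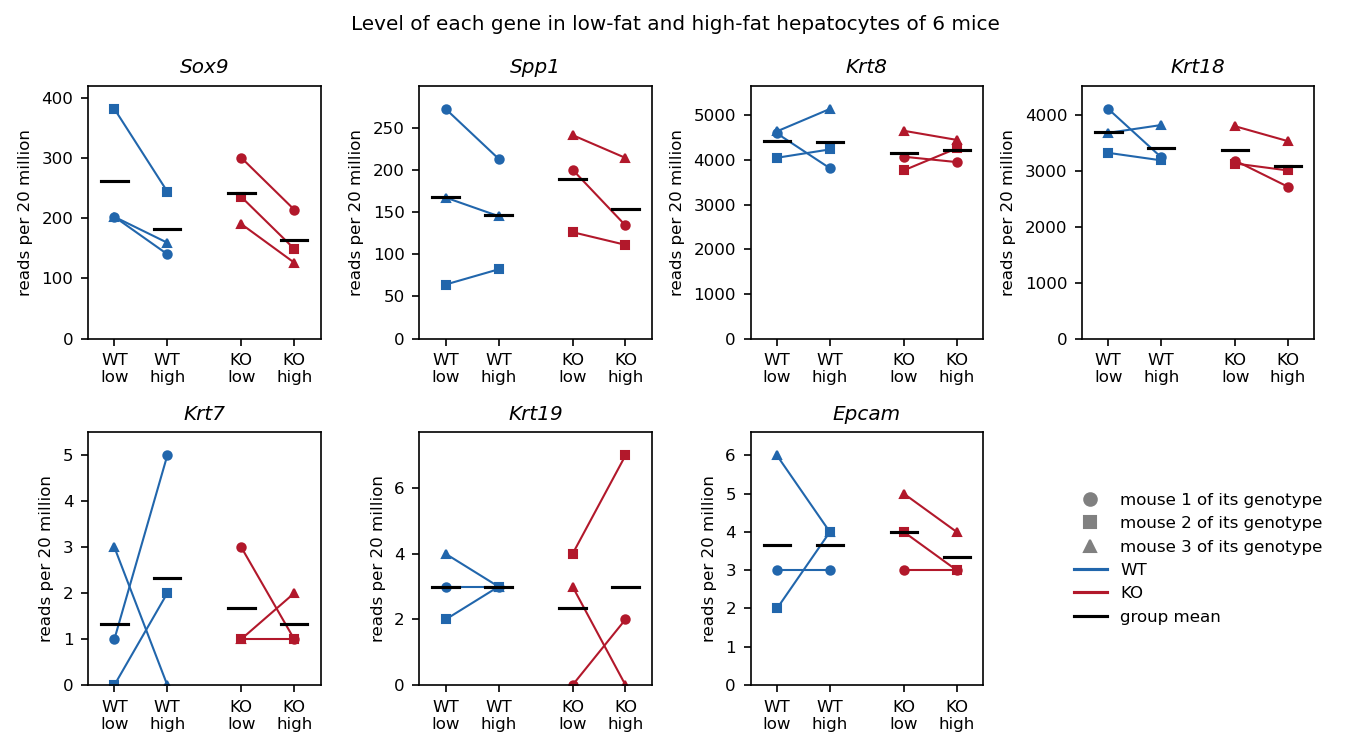
Reads per 20 M (vertical axes, from 0, a different scale for each gene) in low-fat and high-fat libraries of 3 WT mice (blue) and 3 KO mice (red). Symbols and lines join the libraries of a mouse, and black bars are group means. Sox9 falls along all 6 lines, while Krt7, Krt19 and Epcam stay at 7 reads per 20 M or less.

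Sox9 (ENSMUSG00000000567; protein-coding, chromosome 11, 112782224 to 112787760, plus strand, GENCODE M21 on GRCm38) fell from the low-fat to the high-fat library in every mouse. Mice are numbered 1 to 3 as in the sample titles, which correspond to the mouse names WT1, WT5 and WT6 and KO2, KO4 and KO6 in the labels. In WT mice 1, 2 and 3 it measured 202, 381 and 202 reads per 20 M in low-fat libraries and 140, 244 and 159 in high-fat libraries. In KO mice 1, 2 and 3 it measured 300, 235 and 190 in low-fat and 214, 149 and 126 in high-fat libraries. The mice differed in level, with WT mouse 2 highest in both fractions, so the groups of libraries overlapped within each genotype although each pair moved down. The high-fat value was 63.4% to 78.7% of the low-fat value of the same mouse.

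Over both genotypes, Sox9 had a log2 fold change of -0.59 (SE 0.20, 95% confidence interval -1.03 to -0.15), so that its level fell by 33.6% in high-fat libraries. Without the mouse in the model, it was not called (adjusted p = 0.128, limma), and 5.77% of all genes tested were. With a term for each mouse, which the shared mouse names in the labels support, the SE was 0.065 and Sox9 was called lower (adjusted p = 0.00404, interval -0.74 to -0.44). In that fit 11.1% of all genes tested were called and 4.28% were called lower, so Sox9 was 1 of 709 genes with such a call. Lower values in 6 of 6 mice were found for 11.6% of genes tested. An exact two-sided sign-flip test over the 6 mice gave p = 0.0312 for Sox9, the smallest p that 6 mice allow. In bulk libraries, fewer cells with Sox9 and less Sox9 RNA per cell cannot be told apart.

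Within each genotype the same pairs were tested over 3 mice. The Sox9 log2 fold change was -0.55 in WT mice (interval -1.18 to 0.07) and -0.63 in KO mice (interval -1.25 to -0.01). Neither was called without the mouse in the model (adjusted p = 0.504 and 0.546, limma). The intervals with a term for each mouse were -0.768 to -0.342 in WT mice and -0.841 to -0.415 in KO mice for Sox9. With a term for each mouse it was called in KO mice (adjusted p = 0.0311), where 1.7% of all genes tested were called against 0.839% without those terms, and missed the threshold in WT mice (adjusted p = 0.0549), where 0 of the 16563 genes were called and 3216, or 19.4%, had an unadjusted p under 0.05. The same fit with scaling factors taken from all genes called Sox9 in WT mice too (adjusted p = 0.0483), as 1 of 169 genes. The call in KO mice was lost with mouse terms when any mouse but WT mouse 1 was left out (adjusted p = 0.0478 to 0.0925 over the 6 mice left out in turn). The test of that difference itself gave -0.07 (interval -0.95 to 0.81, adjusted p = 1.0; with mouse terms, interval -0.38 to 0.23).

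Without mouse 1 of each genotype, whose high-fat libraries had the highest Kupffer sums, Sox9 kept a log2 fold change of -0.55 with mouse terms (adjusted p = 0.0064). Leaving out each of the 6 mice in turn gave -0.62 to -0.56 with mouse terms (adjusted p = 0.00306 to 0.030). The hepatocyte marker sum in high-fat libraries was 87.7% to 108.6% of that in the low-fat library of the same mouse. Alb and Cps1 carried most of that sum. By gene, 7 of the 8 markers had a negative log2 change over both genotypes, with a median of -0.14. None was called without mouse terms. With them Hnf4a was called lower (log2 -0.28, adjusted p = 0.0323, limma), as were 4.28% of all genes tested. The part of non-hepatocyte RNA in the Sox9 difference was not tested.

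**Figure D2:**
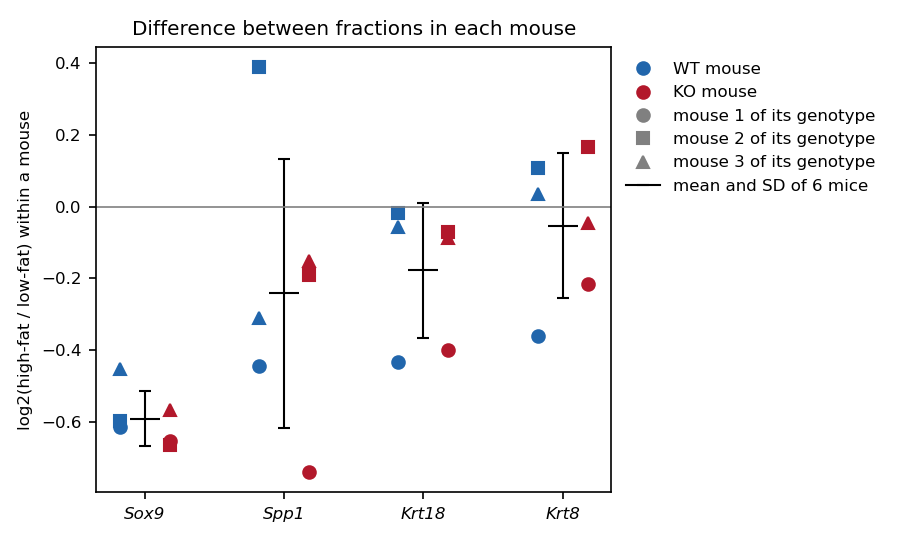
The log2 ratio of high-fat to low-fat level within each mouse (vertical axis) for the 4 genes tested, WT mice in blue and KO mice in red. Symbols number the mice within a genotype, and bars are the mean and SD of 6 mice. The 6 Sox9 points lie between -0.66 and -0.45, whereas the Spp1 points run from -0.74 to 0.39.

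Spp1 (ENSMUSG00000029304; protein-coding, chromosome 5, 104435118 to 104441050, plus strand) varied widely between mice. In WT mice 1, 2 and 3 it measured 272, 64 and 167 reads per 20 M in low-fat and 213, 82 and 145 in high-fat libraries. In KO mice it measured 200, 126 and 241 in low-fat and 134, 111 and 214 in high-fat libraries. WT mouse 2 was lowest in both fractions, and it was the mouse with the highest Sox9. Its level was below that of the low-fat library in 5 of 6 mice, and WT mouse 2 was the exception. The log2 fold change over both genotypes was -0.24 (SE 0.36, interval -1.04 to 0.56, with mouse terms -0.548 to 0.065). It did not pass the test (adjusted p = 0.788 without and 0.277 with mouse terms, limma). Without mouse 1 of each genotype the value with mouse terms was -0.05. Spp1 shares exon sequence on its own strand with the annotated gene Gm42793, which reached 31 reads per 20 M at most, and reads in the shared stretch could not be assigned.

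Krt8 and Krt18, the hepatocyte keratin pair, were the most abundant of the 7 genes. Krt8 measured 4593, 4048 and 4640 reads per 20 M in low-fat and 3814, 4235 and 5141 in high-fat libraries of WT mice 1 to 3. In KO mice it measured 4071, 3767 and 4652 in low-fat and 3951, 4259 and 4448 in high-fat libraries. All 4 groups overlapped. Krt18 measured 4110, 3324 and 3682 in low-fat and 3246, 3190 and 3822 in high-fat libraries of WT mice. In KO mice it measured 3185, 3133 and 3800 in low-fat and 2716, 3009 and 3533 in high-fat libraries. Its groups overlapped too.

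The log2 fold change of Krt8 in high-fat against low-fat libraries was -0.05 (SE 0.10, interval -0.28 to 0.17, adjusted p = 0.844 without mouse terms, limma). With mouse terms its interval was -0.227 to 0.121 (adjusted p = 0.696, limma). Krt8 was lower in 3 of 6 mice, and its sign turned to 0.002 with the deposited scaling alone. For Krt18 the log2 fold change was -0.18 (SE 0.11, interval -0.41 to 0.06, adjusted p = 0.425 without mouse terms, limma). With mouse terms its SE was 0.071 and its interval, -0.343 to -0.013, left out 0. Krt18 was still not called (adjusted p = 0.150, limma), and 28% of all genes tested had an unadjusted p under 0.05 in that fit. After scaling between libraries, Krt18 was lower in 6 of 6 mice, as were 11.6% of genes tested. Its exact two-sided sign-flip p was 0.0312, the smallest possible. In the deposited values WT mouse 3 was the exception, at 103.8%. The largest falls were in mouse 1 of each genotype, with log2 values of -0.43 and -0.40 for Krt18 and of -0.36 and -0.21 for Krt8. Without both, the Krt18 value with mouse terms was -0.04 and the Krt8 value was 0.08. The part of the high Kupffer sums of the 2 high-fat libraries in these values was not tested.

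The 2 keratins moved together across libraries but not in a fixed ratio. Their log2 levels had a Pearson correlation of 0.852 over the 12 libraries, which come in pairs from 6 mice, and no other pair of the 4 genes tested exceeded 0.575. Genes outside these 4 came closer to each keratin, up to 0.951 for Krt8 and 0.935 for Krt18. The ratio of Krt8 to Krt18 reads, which does not depend on scaling between libraries, was 1.12, 1.22 and 1.26 in WT low-fat and 1.18, 1.33 and 1.35 in WT high-fat libraries. In KO mice it was 1.28, 1.20 and 1.22 in low-fat and 1.46, 1.42 and 1.26 in high-fat libraries. The ratio rose from the low-fat to the high-fat library in 6 of 6 mice, by 0.13 ± 0.07 on the log2 scale (SD, n = 6 mice; exact two-sided sign-flip p = 0.0312, the smallest possible). This ratio was examined after the levels of both genes had been seen. How often the ratio of other gene pairs rose in 6 of 6 mice was not examined. For single genes, 9.96% of those tested were higher and 11.6% were lower in 6 of 6 mice.

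**Figure D3:**
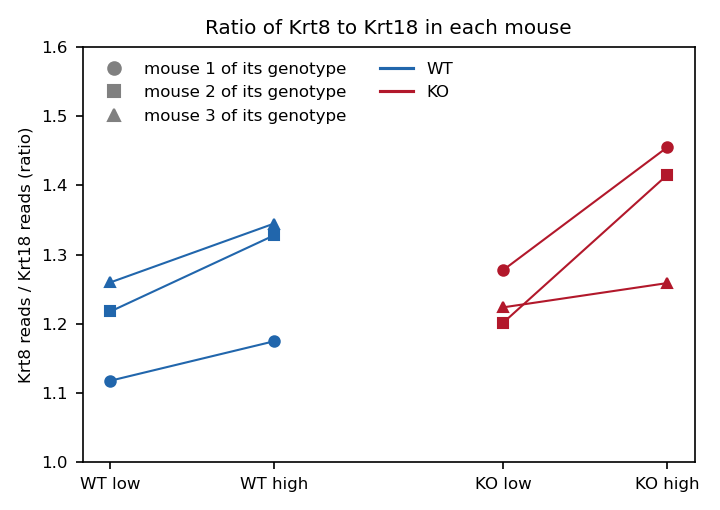
Ratio of Krt8 to Krt18 reads (vertical axis, starting at 1) in the low-fat and high-fat libraries of 3 WT mice (blue) and 3 KO mice (red), with a line for each mouse. All 6 lines rise, from 1.12 to 1.28 in low-fat libraries to 1.18 to 1.46 in high-fat libraries.

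Krt8 and Krt18 are neighbours on chromosome 15. In GENCODE M21 on GRCm38, Krt8 lies from 101996698 to 102004482 on the minus strand and Krt18 from 102028180 to 102032027 on the plus strand, 23697 bases apart with 0 annotated genes between them, so that they are transcribed away from each other. Krt7 lies on the plus strand of the same chromosome from 101411043 to 101430313, 566384 bases from Krt8 with 42 annotated genes between. Exons of Krt7 and Krt8 overlap the non-coding genes Gm671 and Gm36026 on the opposite strand, which were not analysed here. The sequences around the starts of the Krt8 and Krt18 transcripts are shown because this pair was abundant and varied together while nearby Krt7 was not measurable. They come from RefSeq windows on GRCm38.p6, run 5′ to 3′ on the gene's strand at chr15:102004453-102004592 (minus) and chr15:102027966-102028209 (plus), and are printed to shortly after the most upstream annotated start.
Krt8: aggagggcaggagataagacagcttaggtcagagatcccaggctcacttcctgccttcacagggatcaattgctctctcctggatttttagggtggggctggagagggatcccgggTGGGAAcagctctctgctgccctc
Krt18: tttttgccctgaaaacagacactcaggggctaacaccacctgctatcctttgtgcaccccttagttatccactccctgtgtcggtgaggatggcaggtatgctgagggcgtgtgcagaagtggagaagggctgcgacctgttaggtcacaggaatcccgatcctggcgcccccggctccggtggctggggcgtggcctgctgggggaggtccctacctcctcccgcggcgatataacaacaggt
Capitals mark TGGGAA, the core letters bound by RBPJ, the DNA-binding partner of Notch. In Krt8 these letters lie just after the most upstream annotated start.

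RefSeq promoter windows of 250 bases before to 50 after the start were given for 5 of the 7 genes. They were searched on both strands for TGGGAA, for TATAAA (the box at many core promoters), for GGGCGG (Sp1) and for GGAATG (TEAD, the partner of YAP). The Krt8 window held TGGGAA once, starting 134 bases before the RefSeq start. The longest annotated GENCODE gene span starts 140 bases before the RefSeq start, so the motif lies inside that span. This window also held TATAAA on both strands in overlapping letters at the RefSeq start. The Krt18 window held none of the 4 motifs, and the Krt7 window held GGGCGG 4 times. The Spp1 window at the first exon held TATAAA once, starting 211 bases before the RefSeq start, and the Epcam window held GGGCGG once. Among 32851 mouse windows of the same length, 25.6% held TGGGAA, 13.6% TATAAA, 35.7% GGGCGG and 14.7% GGAATG. CpG pairs numbered 21 in the Krt7, 17 in the Krt18, 11 in the Epcam and 6 in the Krt8 window, against a median of 7 over all windows.

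The cholangiocyte keratins Krt7 and Krt19 (ENSMUSG00000020911, chromosome 11, 100140810 to 100148665, minus strand) and Epcam (ENSMUSG00000045394, chromosome 17, 87635979 to 87651129, plus strand) were close to the detection floor. Krt7 measured 1, 0 and 3 reads per 20 M in low-fat and 5, 2 and 0 in high-fat libraries of WT mice, and 3, 1 and 1 against 1, 1 and 2 in those of KO mice. Krt19 measured 3, 2 and 4 in low-fat and 3, 3 and 3 in high-fat libraries of WT mice, and 0, 4 and 3 against 2, 7 and 0 in those of KO mice. Epcam measured 3, 2 and 6 in low-fat and 3, 4 and 4 in high-fat libraries of WT mice, and 3, 4 and 5 against 3, 3 and 4 in those of KO mice. No group or fraction stood out, no fold change is given at this level, and a difference was not detectable at this depth. The sum of the 3 genes lay between 4 and 13 in low-fat and between 6 and 11 in high-fat libraries.

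Knockout of Ptprk was compared with WT in each fraction. None of the 4 genes tested was called in either fraction, without or with the replicate number in the model (adjusted p of at least 0.997, limma), and 0.00604% of all genes tested, 1 gene, was called. In low-fat libraries Sox9 averaged 262 ± 103 in WT mice and 242 ± 55.3 reads per 20 M in KO mice, and in high-fat libraries 181 ± 55.4 in WT mice and 163 ± 45.6 in KO mice (SD, n = 3 mice each). The genotype difference in log2 level was -0.06 (interval -0.69 to 0.56) in low-fat and -0.14 (interval -0.76 to 0.48) in high-fat libraries. For Spp1 the differences were 0.35 (interval -0.78 to 1.48) and 0.11 (interval -1.01 to 1.24), and both turned negative without the library of WT mouse 2 in that fraction, to -0.25 and -0.24. Without the same libraries the Sox9 differences turned positive, to 0.20 and 0.11. The keratins were measured most closely, with Krt8 at -0.09 (interval -0.40 to 0.23) and -0.04 (interval -0.36 to 0.28) and Krt18 at -0.13 (interval -0.46 to 0.20) and -0.15 (interval -0.48 to 0.19). The widths of these intervals mean that a test that missed the threshold does not show the genotypes to be alike.

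**Figure D4:**
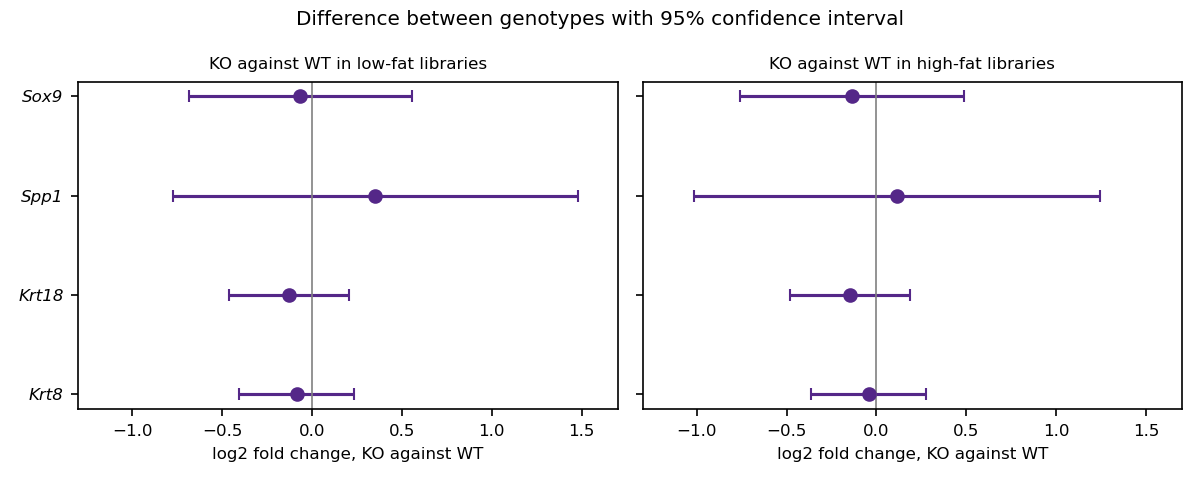
Log2 fold change of KO against WT (horizontal axis) in low-fat (left) and high-fat (right) libraries, fitted over 3 mice a group. Points are estimates and bars are 95% confidence intervals. All 8 intervals include 0, and those of Spp1 are the widest, from -0.78 to 1.48 and from -1.01 to 1.24.

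Interactions of genotype and fraction were also tested. None of the 4 genes was called (adjusted p = 1.0 for each, limma), and neither was any of the 16563 genes tested (0 calls in both fits), of which 24 had an unadjusted p under 0.05 without and 67 with mouse terms. Without mouse terms, the interaction was -0.24 (interval -1.84 to 1.36) for Spp1, 0.04 (interval -0.41 to 0.49) for Krt8 and -0.02 (interval -0.49 to 0.45) for Krt18. With mouse terms the intervals were narrower, at -0.852 to 0.373 for Spp1, -0.308 to 0.389 for Krt8 and -0.346 to 0.313 for Krt18.

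Genes of the same cell type were read next. Of 20 other biliary genes, 10 passed the filter on low values. The other 10 did not, among them the chloride channel Cftr, the secretin receptor Sctr, the claudins Cldn4 and Cldn7, the transcription factor Ehf, and the surface proteins Prom1, Tspan8, Muc1 and Cd24a. They did not exceed 21 reads per 20 M. None of the 10 tested was called between fractions without mouse terms, and 2 were with them, when 11.1% of all genes tested were called. Krt23, a type I keratin known from injured liver, was higher in the high-fat than in the low-fat library in 6 of 6 mice (log2 0.44, adjusted p = 0.0213 with mouse terms, limma, and 0.345 without). It averaged 107 ± 26.8 reads per 20 M in low-fat and 147 ± 47.1 in high-fat libraries of WT mice, and 121 ± 29.5 against 185 ± 71.7 in those of KO mice (SD, n = 3 each). Onecut1 encodes a transcription factor of hepatocytes and biliary development also known as HNF6. After scaling between libraries it was lower in 6 of 6 mice (log2 -0.23, adjusted p = 0.0369 with mouse terms and 0.898 without, limma). In the deposited values its WT mean was 2196 in low-fat and 2226 in high-fat libraries, so it did not fall in every WT mouse. Its level ran from 229 to 3750 reads per 20 M over all libraries. Higher values in 6 of 6 mice were found for 9.96% of genes tested, and lower values for 11.6%. The median log2 change of the 10 tested was -0.10, beside -0.02 over all genes tested.

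The table held 50 other keratin genes. Of these, 36 were at 0 in all 12 libraries, and only Krt23 and Krt10 passed the filter. The remaining keratins did not exceed 8 reads per 20 M. Krt10, a type I keratin of the epidermis, lay between 18 and 32 reads per 20 M in all libraries and was not called (log2 -0.21, adjusted p = 0.590, limma; 0.479 with mouse terms). The keratins at 77 reads per 20 M or more in every library were thus Krt8, Krt18 and Krt23.

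Partners of keratin filaments included plakins and desmosome proteins, which tie the filaments to cell junctions. All 8 tested had a negative log2 change over both genotypes, with a median of -0.21 beside -0.02 over all genes tested. Hepatocyte markers moved the same way, with 7 of 8 negative and a median of -0.14. None of the keratin partners was called without mouse terms and 3 were called lower with them, as were 4.28% of all genes tested. Ppl (periplakin) had a log2 fold change of -0.50 (adjusted p = 0.0162), Jup (plakoglobin) of -0.20 (adjusted p = 0.0287) and Dsc2 (desmocollin 2) of -0.21 (adjusted p = 0.0466), each lower in 6 of 6 mice and none called without mouse terms (adjusted p = 0.441, 0.201 and 0.472, limma). Lower values in 6 of 6 mice were found for 11.6% of genes tested. Of 6 genes of Mallory-Denk bodies, the aggregates of keratins 8 and 18 in damaged hepatocytes, 1 was called with mouse terms, beside 11.1% of all genes tested. This was Hspb1, a small heat shock protein, with a log2 fold change of 0.65 (adjusted p = 0.0248 with and 0.0741 without mouse terms). It averaged 186 ± 11.1 reads per 20 M in low-fat and 304 ± 40.4 in high-fat libraries of WT mice, and 191 ± 43.6 against 330 ± 132 in those of KO mice (SD, n = 3 each). Sqstm1, whose product p62 is a main component of those bodies, was not called (log2 -0.08, adjusted p = 0.678; 0.485 with mouse terms), with 9170 to 11273 reads per 20 M over all libraries.

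Notch and YAP signalling act upstream of Sox9 in biliary cells. Of 14 genes listed, 12 were tested, and Heyl and Wwtr1 were called higher in high-fat libraries without mouse terms, as were 5.05% of all genes tested. Heyl, a Notch target, ran from 1 to 8 reads per 20 M in low-fat and from 10 to 30 in high-fat libraries (log2 1.41, adjusted p = 0.0261 without and 0.0291 with mouse terms, limma). Heyl passed the filter on low values only through its high-fat libraries, and its low-fat values reached below the detection floor. Its call is thus no independent sign of a difference. Wwtr1, which encodes the YAP relative TAZ, had a log2 fold change of 0.31 (adjusted p = 0.0325; 0.00715 with mouse terms). With mouse terms 6 were called higher, as were 6.77% of all genes tested, the others being Notch1 (log2 0.89), Cyr61 (0.59), Ctgf (2.17) and Amotl2 (0.28), and 1 lower, Tead1 (-0.35). Cyr61, Ctgf and Amotl2 are targets of YAP, and Tead1 encodes a DNA-binding partner of it. Hes1, Yap1, Notch2, Rbpj and Jag1 were not called in either fit. Ctgf reached 55 reads per 20 M at most in low-fat and 36 to 180 in high-fat libraries. The median log2 change of the 12 was 0.28. Stellate and endothelial marker sums were higher in the same libraries, as given above, and their part in these values was not tested.

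Among 8 genes of liver progenitor cells, Gpc3, Dlk1 and Foxl1 did not exceed 3 reads per 20 M. Of the 5 tested, 2 were called higher in high-fat libraries in both fits, beside 5.05% of all genes tested without and 6.77% with mouse terms. Lgr5, a receptor of R-spondins, ran from 58 to 132 reads per 20 M in low-fat and from 149 to 329 in high-fat libraries (log2 1.11, adjusted p = 0.0162, limma; 0.0104 with mouse terms). Sox4, a transcription factor related to Sox9, ran from 13 to 23 in low-fat and from 22 to 57 in high-fat libraries (log2 0.89, adjusted p = 0.0452; 0.0198 with mouse terms). Cd44, a hyaluronan receptor, ran from 20 to 89 in low-fat and from 80 to 469 in high-fat libraries and was not called (log2 1.86, adjusted p = 0.0651; 0.0546 with mouse terms). The stellate, endothelial and Kupffer sums were higher in the same libraries, and their part in these values was not tested. The oncofetal gene Afp was not called (log2 0.02, adjusted p = 0.970; 0.960 with mouse terms).

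Osteopontin, the product of Spp1, binds integrins and CD44. Of its 8 receptor genes, all tested, Itga9 and Itgb3 were called higher in high-fat libraries in both fits, beside 5.05% of all genes tested without and 6.77% with mouse terms. Itga9 ran from 58 to 179 reads per 20 M in low-fat and from 309 to 973 in high-fat libraries (log2 1.89, adjusted p = 0.00362, limma; 0.00728 with mouse terms), and it was also called in KO mice alone (log2 2.12, adjusted p = 0.0397). Itgb3 ran from 6 to 24 in low-fat and from 41 to 91 in high-fat libraries (log2 1.80, adjusted p = 0.0051; 0.0101 with mouse terms). Itga5 was called lower with mouse terms only (log2 -0.22, adjusted p = 0.0216 with and 0.521 without). Itgav, Itgb1, Itgb5, Itga4 and Cd44 were not called in either fit. Both integrins that were higher moved with the stellate, endothelial and Kupffer sums, and the part of those cells was not tested.

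**Figure D5:**
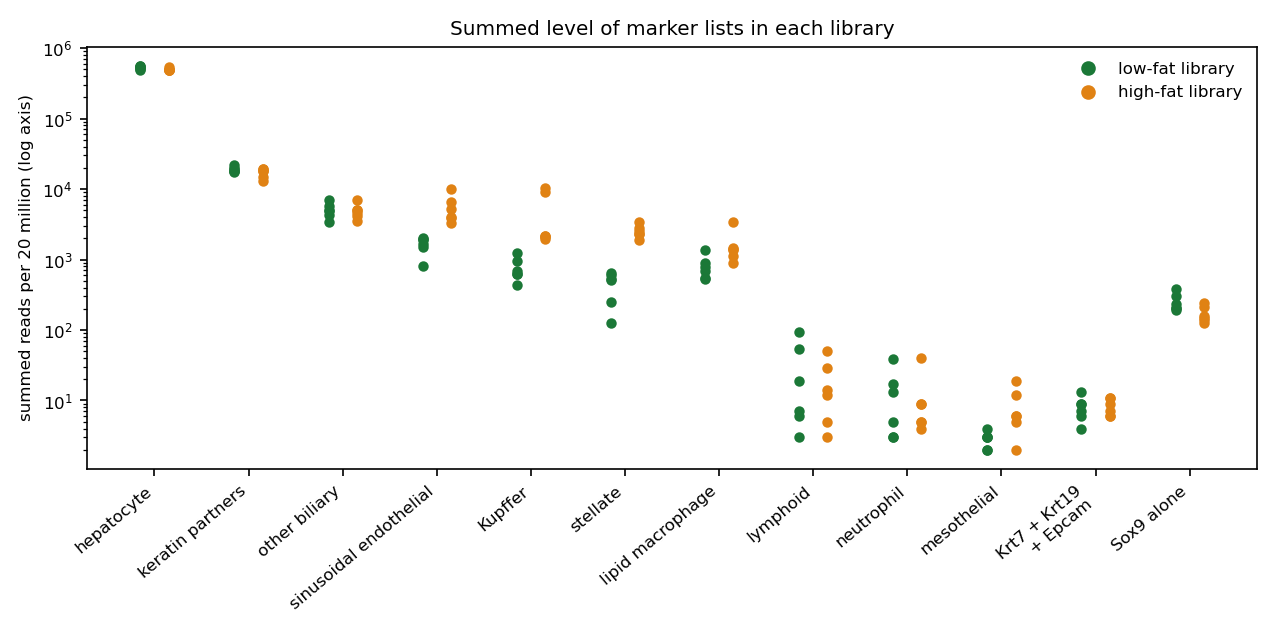
Summed reads per 20 M of each gene list (vertical axis, log scale) in the 6 low-fat (green) and 6 high-fat (orange) libraries, each point 1 library. Stellate, Kupffer and sinusoidal endothelial sums do not overlap between fractions, while Krt7, Krt19 and Epcam together stay at 4 to 13.

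Sums of further lists were as follows. Mesothelial markers, of cells that also carry simple keratins, summed to 2 to 4 reads per 20 M in low-fat and 2 to 19 in high-fat libraries. The sums were 3 to 95 against 3 to 51 for lymphoid and 3 to 39 against 4 to 40 for neutrophil markers. Markers of lipid-associated macrophages, cells that are known to make Spp1, summed to 526 to 1343 in low-fat and 900 to 3461 in high-fat libraries, and their part in the Spp1 level was not tested. Lpl and Cd9 carried most of that sum, while Trem2, Gpnmb, Mmp12 and Itgax did not exceed 41 reads per 20 M in any library.

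Genes with the most similar pattern were sought among 10517 genes whose mean level was 100 reads per 20 M or more, by Pearson correlation of log2 levels over 12 libraries that share 6 mice and 2 fractions. Sox9 was most like Smyd2 (0.891), Fam47e (0.889) and Ddo (0.887). Krt8 was most like Mzt2 (0.951), Nr3c2 (0.918) and Park7 (0.910), and Krt18 most like Lars (0.935), Zfp697 (0.934) and Pcx (0.929). Spp1 was most like Xpnpep1 (0.885) and Slc6a20b (0.883). Sox9 and Spp1 had a correlation of -0.424.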

How the data were processed

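Polyadenylated RNA of the 12 libraries was sequenced. Per the submitters' processing notes the genome build was mm9, and the aligner, the counter and strand handling are not given in the sources used here. The deposited values are a score: the authors scaled gene reads to 20 M (mega) per library and rounded up, as read from the values, whose columns each sum to 20.01 M. Because they are not counts, limma 3.58.1 in R 4.3.3 was used in place of a count model. A gene was tested where 3 or more libraries reached 10, after scaling by the trimmed mean of M values (TMM), as log2(value + 2). Fold changes are on that scale, which understates changes of low genes. Counts of mice in which a gene rose or fell are on that scale too, unless deposited values are named. Means of the 4 groups were fitted over 12 libraries, and p-values were adjusted by Benjamini-Hochberg over 16563 genes, with calls under 0.05. The 6 comparisons were high-fat against low-fat over both genotypes and in each, KO against WT in each fraction, and the interaction. A second fit held a term for each mouse, since the labels give both fractions of a mouse its name, or for each replicate number in KO against WT. Deviations from group means correlated at 0.516 on average within WT mice and 0.165 within KO mice, where the pairs gave 0.044, -0.009 and 0.46. Averages between mice were -0.258 and -0.076, but centring groups of 3 libraries pushes these below 0, so they are no independent comparison. WT and KO libraries of the same replicate number, which are different mice, averaged 0.314 in low-fat and 0.233 in high-fat fractions. Exact sign-flip tests over the 6 mice were run for 4 genes and 1 ratio, unadjusted. Depth was estimated from the pattern of low values, and its floors cover counting error only. Annotation is GENCODE M21, which held 99.56% of the table's gene IDs. Scripts were tested on simulated data. The members and gene lists were chosen with earlier results of these data known. The genes named were all 7 members, each listed gene called in any comparison or else the 2 with the largest change in a list, every other keratin tested, and the 3 genes most like each member. Some genes under this rule are not reported here. Other names were chosen after their values were seen.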

Additional observations from a re-analysis of the deposited data

How the results depend on the processing

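Without mouse terms 0 of the 4 genes tested were called in any comparison, also with each library left out in turn. In the comparison of fractions over both genotypes, 1 gene, Sox9, was called with the replicate block, with a same-mouse correlation of 0.379 in place of the block, with the block and TMM over all genes, and with the block when each mouse or both mice numbered 1 were left out (chosen after seeing the data). In WT mice the block called 0, and 1 with TMM over all genes or without KO mouse 1. In KO mice the block called 1, also with TMM over all genes, without WT mouse 1 or without both mice 1, and 0 when each of the other mice was left out. Sox9 lay between -0.71 and -0.46 with each library left out (adjusted p = 0.072 to 0.285, limma). Krt8 turned to 0.002 over both genotypes and 0.023 in KO mice with the deposited scaling alone.

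None of the values that changed sign in what follows passed the test. With each library left out in turn, Krt8 between fractions ran from -0.114 to 0.008 over both genotypes, from -0.196 to 0.045 in WT mice and from -0.123 to 0.072 in KO mice, and Spp1 from -0.725 to 0.333 in WT mice. In KO against WT in low-fat libraries, Sox9 ran from -0.25 to 0.203, Spp1 from -0.251 to 0.81 and Krt8 from -0.184 to 0.006. In high-fat libraries Sox9 ran from -0.318 to 0.107, Spp1 from -0.236 to 0.413 and Krt8 from -0.159 to 0.08. The interaction ran from -0.342 to 0.172 for Sox9, from -0.685 to 0.363 for Spp1, from -0.075 to 0.164 for Krt8 and from -0.144 to 0.125 for Krt18. With the block and without WT mouse 1, Krt8 turned to 0.036 over both genotypes and 0.09 in WT mice, Spp1 to 0.056 in WT mice and the Krt8 interaction to -0.108. Without KO mouse 1, Krt8 turned to 0.059 in KO mice and the Krt18 interaction to 0.087. Without both, Krt8 turned to 0.084 over both genotypes, 0.093 in WT mice and 0.075 in KO mice, its interaction to -0.018, and Spp1 to 0.059 in WT mice. Without WT mouse 2 the interaction turned to 0.015 for Spp1 and 0.059 for Krt18, without WT mouse 3 to 0.008 for Sox9 and 0.07 for Krt18, and without KO mouse 2 to -0.058 for Krt8. The cause was not tested. With 3 mice a group, and Krt7, Krt19 and Epcam near the floor, depth and mouse number limit what these libraries can show.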
